A study of Sus scrofa with 15 samples.

Results

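The genes described here encode the subunits of the mitochondrial respiratory chain and ATP synthase. They were taken by name: every gene whose only symbol in the array annotation begins with NDUF followed by A, B, C, S or V, with UQCR, with COX4 to COX8 or with ATP5, or is SDHA, SDHB, SDHC, SDHD or CYC1. This gave 63 genes of the 6765 with 1 symbol on the array: 32 subunits of complex I, 4 of complex II, 2 of complex III, 8 of complex IV, 14 genes of complex V and 3 assembly factors of complex I whose symbols fit the same pattern. NDUFA4 was counted with complex IV, of which it is now known to be a subunit. No gene was chosen by its measured level.

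The respiratory chain passes electrons from NADH (complex I) and succinate (complex II) through ubiquinone to complex III, cytochrome c and complex IV, which hands them to oxygen. Complexes I, III and IV pump protons across the inner mitochondrial membrane, and complex V, the ATP synthase, uses their return to make ATP. Granulosa cells also need mitochondria for steroid hormones, since the side-chain cleavage of cholesterol takes place there.

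Total RNA of pig granulosa cells, which surround the oocyte in the ovarian follicle and make its steroid hormones, was hybridised to Affymetrix porcine genome arrays on days 0, 1, 2, 4 and 7 of culture, with 3 arrays for each day and 15 in all. By the labels the groups differ only in the day of culture. No treatment, genotype or age is given, and the day 0 cells, with 0 days in culture, are the controls. Comparisons with day 0 thus set cells without time in culture against cultured ones. The labels call the replicates biological and the day 7 cells dedifferentiated (DFOG), without saying whether replicates came from separate animals or cultures, so a p-value here reflects only how far the arrays of a day differ, which may be technical. Values are deposited log2 levels. A probe set is a group of probes for one transcript, and 1 was used per gene. A gene is said to have risen or fallen where limma's moderated test gave a Benjamini-Hochberg adjusted p under 0.05 over all 23999 probe sets, and changes are log2 differences ± standard error (SE) with 3 arrays on each day.

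Of 11 granulosa markers 8 fell by day 7, and their mean level went from 9.47 to 9.85 on the day 0 arrays to 6.15 to 6.28 on those of day 7. The median level of the 63 genes was 10.71 to 10.87 on the day 0 arrays and 10.87 to 10.92 on those of day 7. Theca and stromal markers went from 5.48 to 5.81 to 7.88 to 8.04, with 4 risen and 2 fallen of 8. Macrophage markers stayed at 4.77 to 5.12 on all 15 arrays (1 of 9 risen, CD14), lymphocyte and granulocyte markers at 4.01 to 4.56, and endothelial markers at 5.08 to 5.48 (2 risen and 1 fallen of 10). Neither the lymphocyte nor the 2 red cell markers included one past the test. The mean level of the red cell markers was 7.065 to 7.646 on the day 0 arrays and 6.84 to 6.864 on those of day 7. Their median change on day 7 was -0.472. In bulk RNA fewer cells of a type and less RNA per cell cannot be told apart. The difference between the 3′ and 5′ actin probe sets, often taken to measure RNA integrity, was 0.97 to 1.68 on day 0. It ran from 0.18 to 1.01 on day 1 and was at most 0.59 on day 7. It reached 2.12 on day 4 replicate 2. For dap, a control RNA that does not come from the cells, the day 0 arrays gave 1.718 to 1.774. Its day 1 arrays gave 1.473 to 1.631, its day 7 arrays 1.249 to 1.451, and day 4 replicate 2 gave 3.525. Whether these differences reflect the integrity of the cells' RNA or its labelling was not tested. Both moved with the comparisons against day 0 below, and their part in them was not tested.

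Nearly all 63 genes were bright. The means over the 15 arrays ran from 6.70 to 12.78, and 57 genes lay above 8.52, the highest upper quartile of any array. The other 6 lay between the arrays' medians and that level, and no gene's mean lay below the lowest array median, 6.40. Levels of different genes depend on their probes and are not ranked against each other.

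Of the 63 genes, 4 rose and 3 fell on day 1 against day 0, where 13.6% and 11.4% of all probe sets did. On day 7 against day 0, 8 rose and 8 fell, against 16.4% and 14.9% of all probe sets. Over the whole time course 18 genes (28.6%) passed limma's F test, against 35.9% of all probe sets, and 3 of them had day means at least 1 apart, against 23.6%. The 3 arrays of day 7 lay apart from those of day 0 for 26 genes, where 46.5% of all probe sets did so. On day 1 this held for 21 genes, against 37% of all probe sets. With replicate number as a block, 7 rose and 4 fell on day 1, 11 rose and 9 fell on day 7, and 21 passed the F test. Without replicate 1 on every day, whose arrays stood apart from the rest, 8 rose and 10 fell on day 1, and 10 rose and 8 fell on day 7. The shares of all probe sets with the block or without replicate 1 were not computed. These counts therefore cannot be read as more changes in the 63 genes than elsewhere.

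The changes were small and went both ways. The median change was -0.003 on day 1 and 0.04 on day 7, against -0.001 and -0.05 over all probe sets, and the standard deviation of the day 7 changes across genes was 0.41 against 1.04. For 60 of the 63 genes the 95% confidence interval of the day 1 change lay within 1 on either side of 0, so a change of 2-fold lay outside it. This held for 64.9% of all probe sets. For day 7 it held for 57 of the 63, against 60.9%. The 6 genes with a wider reach on day 7 were ATP5J, ATP5G1, COX7A1, NDUFC1, NDUFAF2 and NDUFAF3. These interval counts were made after the data were seen.

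**Figure D1:**
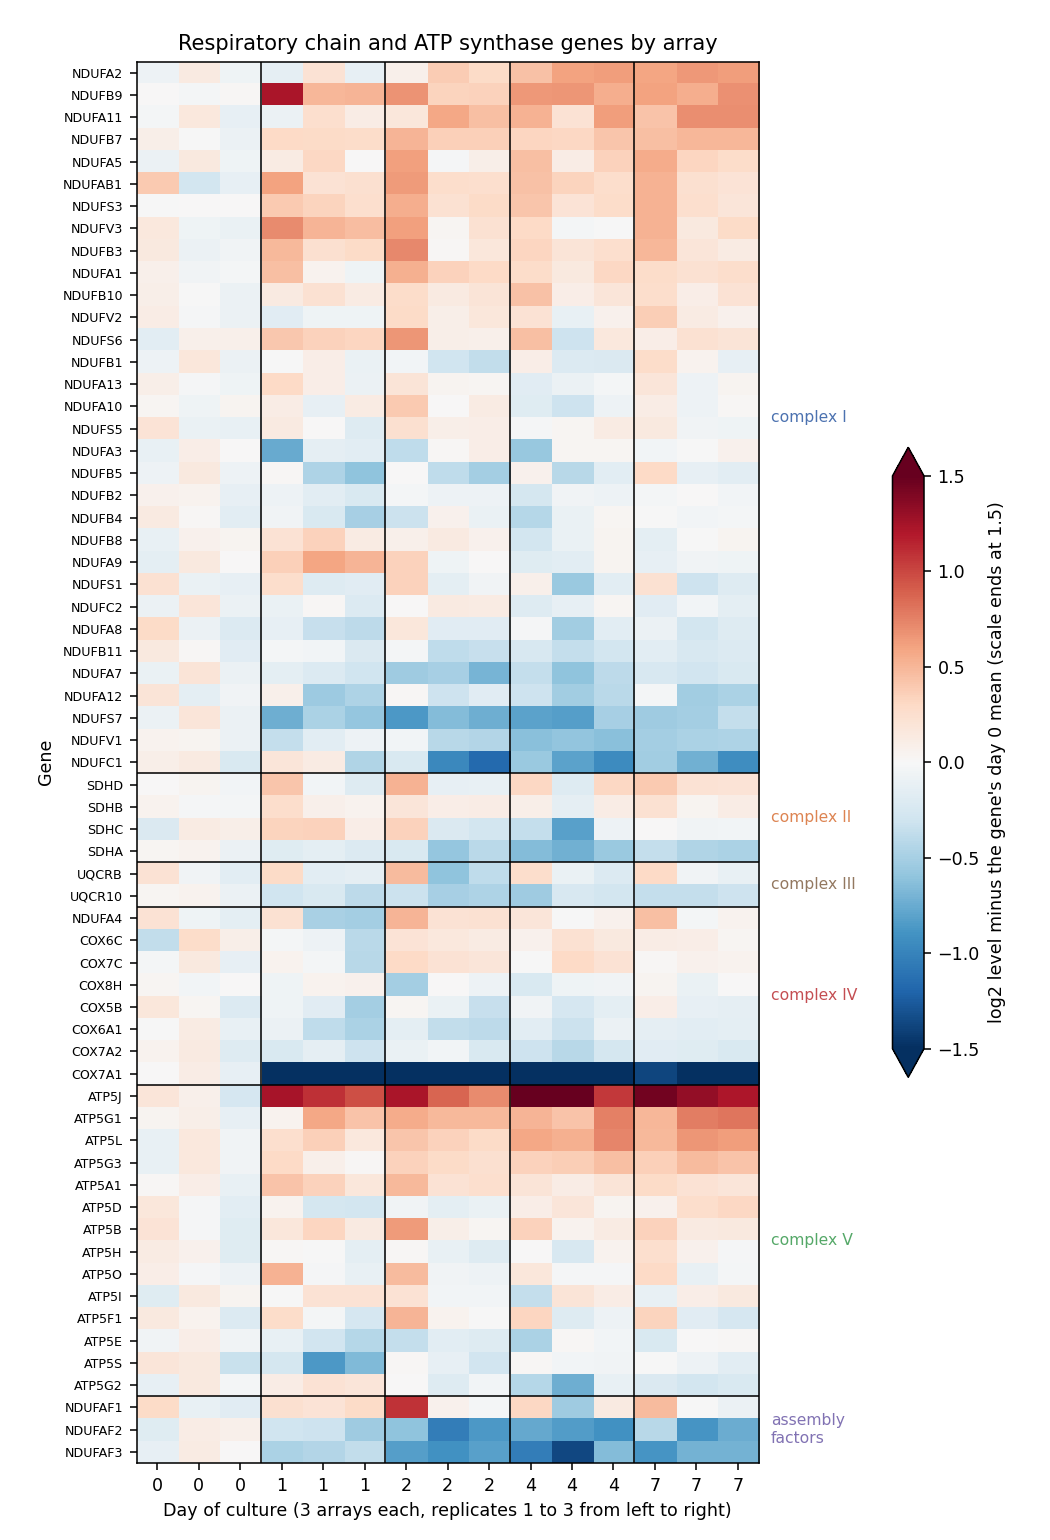
Log2 level of each of the 63 genes (vertical axis, grouped by complex) on each of the 15 arrays (horizontal axis, day of culture), minus the gene's day 0 mean; red is higher and blue lower, and the colour scale ends at 1.5. Most cells are pale, COX7A1 is dark blue on every array after day 0 and ATP5J is red on all of them.

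Complex I takes electrons from NADH. Of its 32 measured subunits 3 rose and 1 fell on day 1, and 4 rose and 3 fell on day 7. The median changes were -0.01 and 0.02. These counts turned towards falls under rescaling: with a second quantile normalization, which gives all arrays one distribution, 2 were higher and 4 lower on day 1 and 0 and 6 on day 7. With cyclic loess, which removes level-dependent differences between arrays, they were 2 and 8, and 0 and 7. Of all probe sets, 12.8% were higher and 13.1% lower on day 1 after the second quantile normalization, and 15.1% and 17.2% on day 7. After cyclic loess these shares were 11.7% and 13.1%, and 15.7% and 15.8%. The 5 core subunits, which carry the electron path, included 0 risen and 2 fallen on day 7, and the 27 accessory subunits 4 risen and 1 fallen; the difference between these groups was not tested.

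NDUFS7 carries the last iron-sulfur cluster before ubiquinone. It stood at 10.44, 10.71 and 10.44 on the day 0 arrays, 9.80, 10.06 and 9.95 on day 1, and 9.998, 10.02 and 10.17 on day 7. All arrays after day 0 lay below all of day 0. NDUFS7 fell by 0.59 ± 0.14 on day 1 (adjusted p = 0.00517, a 1.51-fold drop) and by 0.47 ± 0.14 on day 7 (adjusted p = 0.0173). The day 7 call was lost when day 0 replicate 2 or either of day 7 replicates 1 and 2 was left out (adjusted p up to 0.078), and the day 1 call was kept with each array left out.

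NDUFV1 binds NADH and the flavin that receives its electrons. Its levels were 10.56, 10.55 and 10.42 on day 0, 10.16, 10.36 and 10.44 on day 1, 9.88, 9.92 and 9.88 on day 4, and 10, 10.04 and 10.05 on day 7. The day 1 arrays overlapped those of day 0, and those of days 4 and 7 lay below them. NDUFV1 fell by 0.48 ± 0.13 on day 7 (adjusted p = 0.0109), and that call was kept with each array left out. The other core subunits, NDUFS1, NDUFS3 and NDUFV2, differed by -0.09, 0.32 and 0.19 on day 7 and did not pass. NDUFS3, at 10.19 ± 0.01 (SD, n = 3) on day 0 and 10.51 ± 0.17 on day 7, passed with replicate number as a block on day 1 (adjusted p = 0.038) and day 7 (adjusted p = 0.0358), but the day 1 difference of 0.33 was 0.10 after cyclic loess (adjusted p = 0.601) and the day 7 one 0.08 (adjusted p = 0.625).

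Among the accessory subunits, NDUFB9, a LYR-motif protein of the membrane arm, stood at 11.33, 11.30 and 11.34 on day 0 and at 12.54, 11.81 and 11.82 on day 1. Day 1 replicate 1 was the highest, and all 3 lay above day 0. NDUFB9 rose by 0.74 ± 0.18 on day 1 (adjusted p = 0.00647, 1.67-fold) and by 0.61 ± 0.18 on day 7 (adjusted p = 0.0164). The day 1 rise was kept with each array left out and under every scaling, and the day 7 rise was lost without day 7 replicate 3 (adjusted p = 0.0579), and under both rescalings (adjusted p = 0.0781 and 0.139).

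NDUFA2, at 10.21, 10.43 and 10.23 on day 0, was 10.16, 10.50 and 10.17 on day 1 and 10.88, 10.94 and 10.92 on day 7. It had no clear change on day 1 (-0.01 ± 0.13) and rose by 0.62 ± 0.13 by day 7 (adjusted p = 0.00246). NDUFA11 and NDUFB7, both of the membrane arm, rose by 0.61 ± 0.16 and 0.48 ± 0.11 on day 7 (adjusted p = 0.00936 and 0.00283). These 3 rises passed with each array left out but not after a second quantile normalization or cyclic loess, where they were 0.25 to 0.40. NDUFA11, NDUFB7, NDUFA9, ATP5L and ATP5G3 fall outside the rule for named genes and were chosen after their values were seen. Also outside the rule are NDUFS1, NDUFS3, NDUFV2, NDUFAB1, NDUFA12, NDUFA1, COX5B, COX6C, COX7C and COX8H. So are ATP5A1, ATP5B, ATP5D, ATP5E, ATP5F1, ATP5G2, ATP5H and ATP5O. Several of these passed only in an alternative setting.

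NDUFC1, a small subunit of the membrane arm, kept its day 0 level on day 1 and was lower later. It stood at 10.80, 10.84 and 10.47 on day 0, 10.88, 10.83 and 10.26 on day 1, 10.47, 9.74 and 9.54 on day 2, and 10.19, 9.99 and 9.77 on day 7. Replicate 3 was the lowest on each day. NDUFC1 fell by 0.72 ± 0.24 on day 7 (adjusted p = 0.0334), a call lost without day 0 replicate 1 or 2 or day 7 replicate 2 or 3 (adjusted p up to 0.122). The difference between days 2 and 1 was -0.74 ± 0.24, with adjusted p = 0.0930 without a block and 0.00746 with replicate number as a block.

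NDUFV3 and NDUFA9 were highest on day 1. NDUFV3, a small partner of the NADH-binding subunits, rose from 7.33, 7.11 and 7.08 to 7.88, 7.69 and 7.64 on day 1 (0.56 ± 0.17, adjusted p = 0.0248), and differed by 0.32 ± 0.17 on day 7 (adjusted p = 0.178, and 0.0347 with replicate number as a block). NDUFA9, which lies where complex I meets ubiquinone, rose by 0.49 ± 0.14 on day 1 (adjusted p = 0.0182) and differed by -0.08 ± 0.14 on day 7. Both day 1 calls were lost without 1 of several arrays, although all day 1 arrays lay above those of day 0. With arrays left out the NDUFV3 change ran from 0.489 to 0.642 and the NDUFA9 change from 0.411 to 0.559. The call of NDUFV3 was lost without day 0 replicate 2 or 3 or day 1 replicate 1 or 2 (adjusted p up to 0.0857). That of NDUFA9 was lost without day 0 replicate 1 or day 1 replicate 2 or 3 (adjusted p up to 0.0702), and after both rescalings of the arrays (adjusted p = 0.0587 and 0.163). NDUFAB1, the mitochondrial acyl carrier protein, and NDUFA12 did not pass as fitted; with replicate number as a block NDUFAB1 passed on days 1 and 7 (0.35 and 0.32, adjusted p = 0.0346 and 0.0436) and NDUFA12 on day 7 (-0.34, adjusted p = 0.0331). After cyclic loess the differences of NDUFAB1 were 0.10 and 0.05, not past the test, while those of NDUFA12 were -0.56 and -0.63 on days 1 and 7 and passed (adjusted p = 0.0224 and 0.01).

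Complex II, the succinate dehydrogenase, links the tricarboxylic acid cycle to the chain. SDHA, its flavoprotein, stood at 10.87, 10.89 and 10.75 on day 0, 10.65, 10.69 and 10.64 on day 1, 10.19, 10.12 and 10.27 on day 4, and 10.48, 10.39 and 10.36 on day 7. Every array after day 0 lay below those of day 0. SDHA fell by 0.43 ± 0.12 on day 7 (adjusted p = 0.0126), also with each array left out. Its day means were 10.84, 10.66, 10.43, 10.19 and 10.41 on days 0, 1, 2, 4 and 7. The iron-sulfur subunit SDHB differed by 0.13 ± 0.12 on day 7, and the membrane anchors SDHC and SDHD by -0.03 ± 0.20 and 0.27 ± 0.21, none past the test. On day 1, 0 of the 4 subunits passed limma's test, with 0 at an unadjusted p under 0.05. SDHA, at -0.17 ± 0.12 on day 1, passed there after a second quantile normalization (-0.32, adjusted p = 0.0467) and cyclic loess (-0.41, adjusted p = 0.00925). A dimmer SDHB probe set fell by 1.195 ± 0.19 on day 1 (adjusted p = 0.000338), against the direction of the one used.

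Complex III was measured through 2 small subunits. UQCR10 stood at 11.35, 11.38 and 11.23 on day 0, 11.03, 11.09 and 10.93 on day 1 and 10.96, 10.97 and 11.01 on day 7, without overlap between day 0 and either later day. The day 1 difference of -0.31 ± 0.12 did not pass (adjusted p = 0.0744), and the day 7 fall of -0.34 ± 0.12 did (adjusted p = 0.0406). Without any 1 of the 6 arrays of days 0 and 7 the day 7 call was lost (adjusted p up to 0.111). Under the rescalings both differences were larger and passed: -0.43 and -0.58 after a second quantile normalization (adjusted p = 0.0194 and 0.00218), and -0.55 and -0.61 after cyclic loess (adjusted p = 0.00223 and 0.00085). UQCRB, the ubiquinone-binding protein, differed by -0.003 ± 0.25 on day 1 and 0.05 ± 0.25 on day 7. The probe set of UQCRB is of a kind that can read more than 1 transcript.

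Complex IV, cytochrome c oxidase, held the largest change of the 63 genes. COX7A1, the isoform of subunit 7A known from heart and skeletal muscle, stood at 8.88, 8.99 and 8.75 on day 0. It was 7.25, 6.55 and 6.37 on day 1, 6.17, 7.24 and 7.18 on day 2, 5.79, 6.99 and 7.19 on day 4, and 7.50, 7.06 and 7.25 on day 7. All 12 later arrays lay more than 1 below the lowest of day 0, while they varied widely among themselves, with replicate 1 the lowest on days 2 and 4 and the highest on days 1 and 7. COX7A1 fell by 2.15 ± 0.36 on day 1 (adjusted p = 0.00054, a 4.43-fold drop) and by 1.60 ± 0.36 on day 7 (adjusted p = 0.00346, 3.04-fold). Both calls were kept in all 18 settings, and the day 1 change ranged from -2.41 to -1.97 over them.

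COX7A2, the isoform of the same subunit found in most tissues, stood at 12.38, 12.45 and 12.13 on day 0 and 12.15, 12.14 and 12.10 on day 7. Its ranges on days 0 and 7 overlapped. It differed by -0.22 ± 0.12 on day 1 (adjusted p = 0.215) and -0.19 ± 0.12 on day 7 (adjusted p = 0.256). After a second quantile normalization these were -0.33 and -0.40, and after cyclic loess -0.49 and -0.51, all past the test (adjusted p = 0.00266 to 0.0474). The change of COX7A1 minus that of COX7A2 on the same arrays was -1.93 on day 1 and -1.41 on day 7, without overlap with day 0. An exact permutation test over the 6 arrays gave p = 0.10 (two-sided) for each, the smallest that 3 against 3 arrays allow. Groups without overlap always give this value, so the test cannot add weight to the difference.

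The other 6 subunits of complex IV did not pass on either day as deposited. After cyclic loess 7 of the 8 genes of the complex were lower on day 1. So were 34.9% of the 63 genes, 13.1% of all probe sets and 19.2% of those with a mean above 8.52. Whether the complex differed from the other genes was not tested. COX5B (-0.52), NDUFA4 (-0.52), COX6C (-0.45) and COX7C (-0.41) passed there (adjusted p = 0.00586 to 0.0435) beside COX6A1, COX7A1 and COX7A2. COX5B also passed on day 7 (-0.39, adjusted p = 0.026). COX8H, the heart isoform of subunit 8, was the dimmest of the 63 genes with a mean of 6.70 and differed by 0.02 ± 0.14 on day 1 and -0.02 ± 0.14 on day 7. COX6A1, the isoform of subunit 6A found outside muscle, differed by -0.32 ± 0.13 on day 1 (adjusted p = 0.105) and -0.14 ± 0.13 on day 7. After a second quantile normalization it was -0.38 and -0.35, and after cyclic loess -0.59 and -0.47, all past the test (adjusted p = 0.000646 to 0.0186). NDUFA4 was 11.37 ± 0.42 (SD, n = 3) on day 1 and 11.95 ± 0.17 on day 2, a difference of 0.57 ± 0.20 that did not pass (adjusted p = 0.125) and did with replicate number as a block (adjusted p = 0.0129). COX5B, COX6C and COX7C differed by -0.05 to 0.08 on day 7 as deposited.

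**Figure D2:**
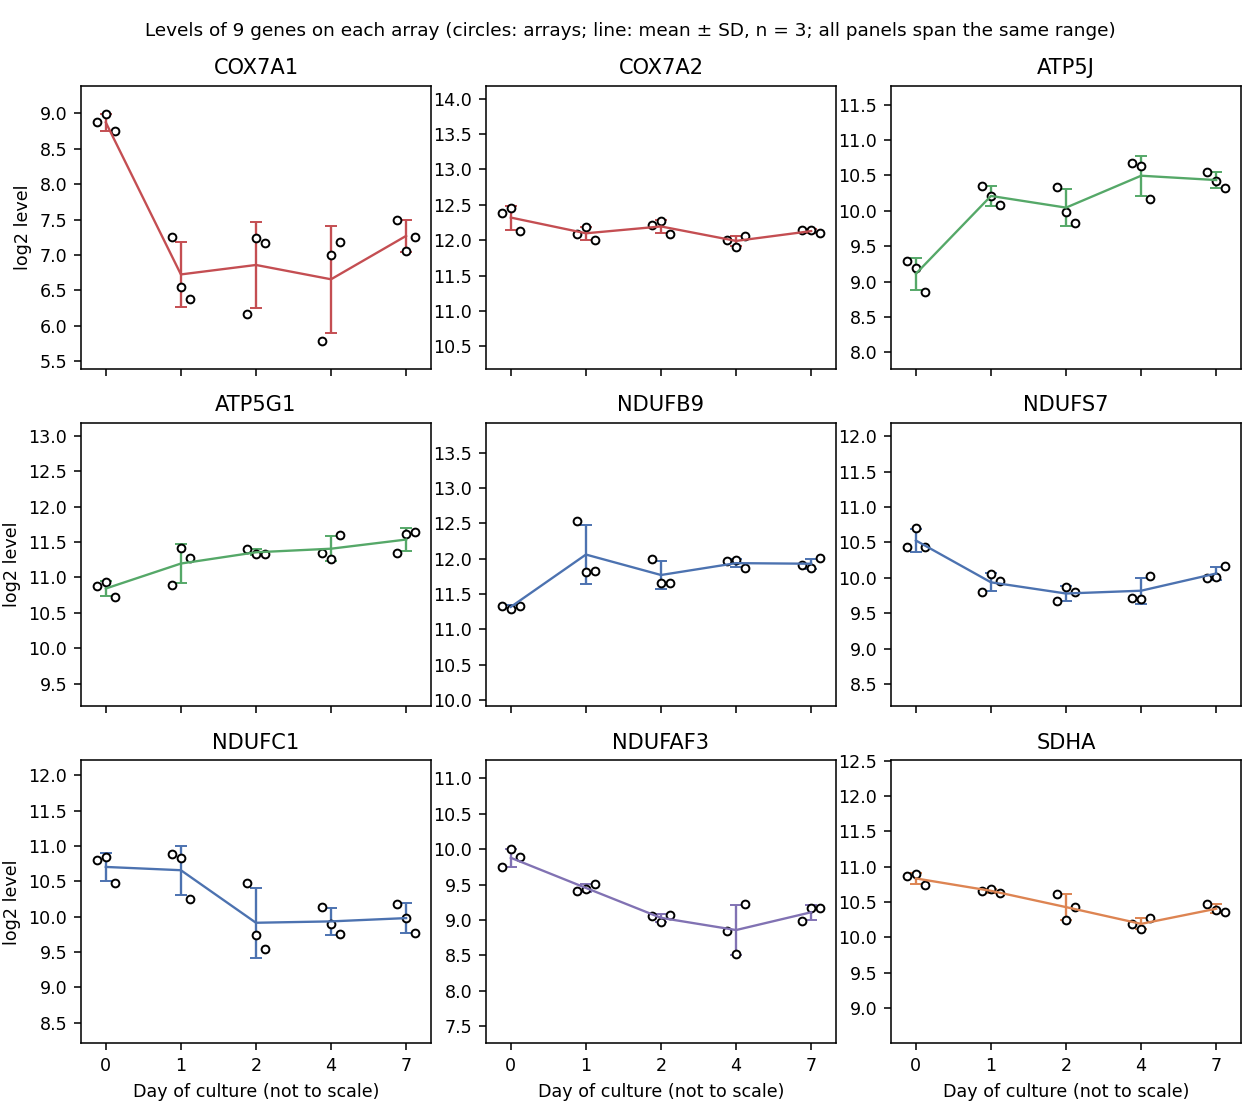
Log2 level (vertical axis) of 9 genes on each of the 3 arrays (circles) of days 0, 1, 2, 4 and 7 (horizontal axis, not to scale), with the mean and SD of each day as a line; every panel spans the same range. COX7A1 drops by day 1 and stays low while COX7A2 moves by at most 0.33 between day means, and ATP5J lies higher on all later days than on day 0.

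Complex V, the ATP synthase, had 1 gene risen and 1 fallen of 14 on day 1, and 4 risen and 0 fallen on day 7, with median changes of 0.14 and 0.15. On day 7, 4 genes of complex V passed at an unadjusted p under 0.05, all of them the risen ones. The largest rise of the 63 genes was that of ATP5J, coupling factor 6 of the peripheral stalk that holds the catalytic head in place. It stood at 9.29, 9.19 and 8.86 on day 0, 10.35, 10.20 and 10.08 on day 1, 10.33, 9.98 and 9.82 on day 2, 10.68, 10.64 and 10.17 on day 4, and 10.55, 10.43 and 10.33 on day 7. All 12 later arrays lay above every array of day 0.

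ATP5J rose by 1.10 ± 0.18 on day 1 (adjusted p = 0.000426, 2.14-fold) and by 1.32 ± 0.18 on day 7 (adjusted p = 5.94e-05, 2.503-fold). Both calls were kept with each array left out and under every scaling. The difference between days 4 and 2 was 0.45 ± 0.18, with adjusted p = 0.241 without a block and 0.0332 with replicate number as a block. A second ATP5J probe set, with a mean of 2.82, below the lower quartile of every array (4.41 to 4.68), differed by -0.09 and -0.003 on days 1 and 7. The other 3 stalk genes, ATP5F1, ATP5H and ATP5O, differed by -0.03 to 0.10 on day 7 and did not pass.

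The genes ATP5G1, ATP5G2 and ATP5G3 encode the same mature subunit c, the ring that turns as protons pass. They did not move together. ATP5G1 stood at 10.88, 10.93 and 10.72 on day 0 and 11.35, 11.61 and 11.65 on day 7, and ATP5G3 at 12.42, 12.68 and 12.48 and then 12.89, 13.01 and 12.95. On both the day 7 arrays lay above those of day 0. ATP5G1 rose by 0.69 ± 0.15 (adjusted p = 0.00308) and ATP5G3 by 0.42 ± 0.12 (adjusted p = 0.0142). ATP5G2 differed by -0.24 ± 0.15 on day 7 (adjusted p = 0.250) but passed the F test over the 5 days (adjusted p = 0.0392), with its highest mean of 11.97 on day 1 and its lowest of 11.37 on day 4. It was lower on day 7 under both rescalings (-0.47 and -0.54, adjusted p = 0.0273 and 0.00883). The difference between the 3 genes was not tested, nor whether their probe sets read each other's transcripts. The rises of ATP5G1 and ATP5G3 were lost after a second quantile normalization (0.43 and 0.17) and cyclic loess (0.42 and 0.08), and that of ATP5G3 also without day 7 replicate 2 (adjusted p = 0.054).

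ATP5L, subunit g of the membrane part, stood at 11.86, 12.12 and 11.92 on day 0 and 12.45, 12.63 and 12.59 on day 7. It rose by 0.59 ± 0.12 (adjusted p = 0.00175); after cyclic loess the difference was 0.27 and did not pass (adjusted p = 0.0861). Of 2 further ATP5L probe sets, one rose by 0.60 ± 0.18 and a dimmer one differed by 0.13 ± 0.36. The catalytic F1 part did not pass on either day as deposited: ATP5A1 and ATP5B, the alpha and beta subunits, differed by 0.23 ± 0.12 and 0.21 ± 0.17 on day 7, ATP5D and ATP5E by 0.22 ± 0.13 and -0.07 ± 0.15. ATP5A1 differed by 0.32 ± 0.12 on day 1 (adjusted p = 0.0722, and 0.0429 with replicate number as a block), and by 0.04 after cyclic loess (adjusted p = 0.812). ATP5D and ATP5E were lower on day 1 after cyclic loess (-0.39 and -0.55, adjusted p = 0.0435 and 0.0194), from -0.16 ± 0.13 and -0.28 ± 0.15 as deposited. Without replicate 1, ATP5E was lower on day 1 (-0.39, adjusted p = 0.0275) and ATP5D higher on day 7 (0.38, adjusted p = 0.0272). ATP5S, coupling factor B, fell by 0.60 ± 0.17 on day 1 (adjusted p = 0.0198) although its arrays overlapped those of day 0, and lost the call without day 0 replicate 1 or 2 or day 1 replicate 2 or 3 (adjusted p up to 0.0945). On day 7 it differed by -0.08 ± 0.17.

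The 3 complex I assembly factors do not stay in the finished enzyme. NDUFAF3, which acts early with NDUFAF4, stood at 9.75, 10.001 and 9.88 on day 0, 9.41, 9.44 and 9.51 on day 1, 9.05, 8.97 and 9.07 on day 2, 8.84, 8.51 and 9.22 on day 4, and 8.99, 9.17 and 9.17 on day 7. Every later array lay below day 0. NDUFAF3 fell by 0.77 ± 0.16 by day 7 (adjusted p = 0.00181, a 1.70-fold drop); the day 1 difference was -0.43 ± 0.16, with adjusted p = 0.065 without a block and 0.0418 with replicate number as a block.

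NDUFAF2, which acts late in assembly, stood at 7.98, 8.28 and 8.24 on day 0 and 7.75, 7.28 and 7.43 on day 7, again without overlap. It fell by 0.68 ± 0.16 (adjusted p = 0.00412), and its probe set is of a kind that can read more than 1 transcript. The day 7 falls of NDUFAF3 and NDUFAF2 were kept with each array left out and under every scaling. A second NDUFAF2 probe set, with a mean of 2.90, differed by 0.02 ± 0.12. NDUFAF1 differed by 0.13 ± 0.29 on day 7 and did not pass.

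**Figure D3:**
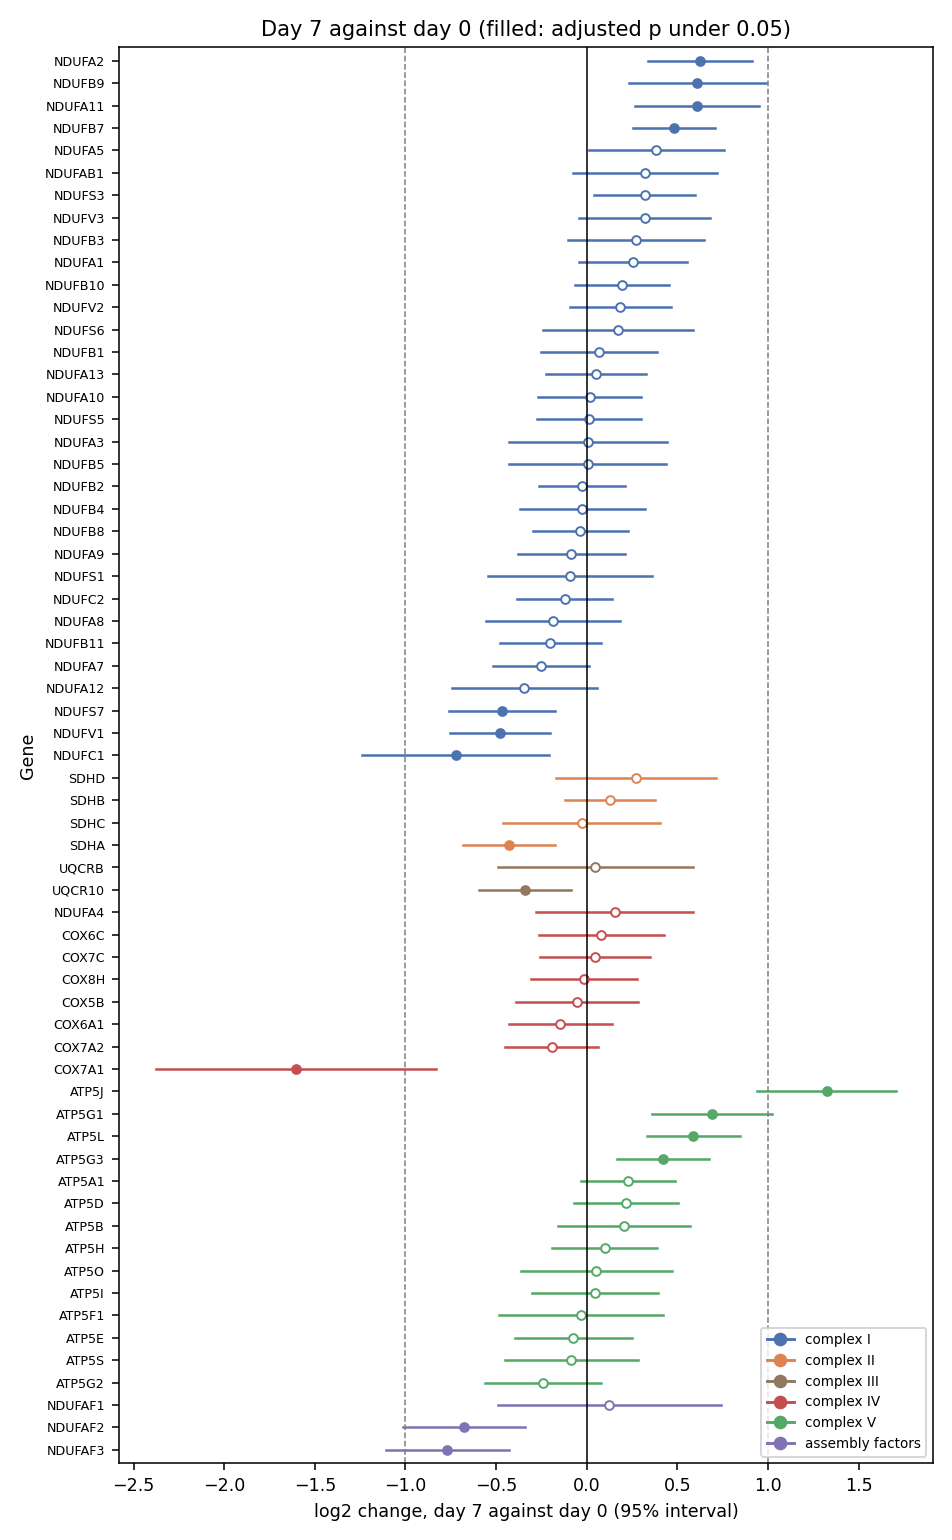
Log2 change on day 7 against day 0 (horizontal axis) of each of the 63 genes (vertical axis, coloured by complex), with its 95% confidence interval; filled points passed limma's test (adjusted p under 0.05) and dashed lines mark a change of 1. All but 6 intervals lie between the dashed lines, and the points of COX7A1 and ATP5J lie outside them. Of the 8 filled points on the right, 2 still passed with a second quantile normalization and 1 with cyclic loess.

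Compared by complex, the median change on day 1 was highest in complex V (0.14), followed by complex II (0.10), complex I (-0.01), complex III (-0.16) and complex IV (-0.24). On day 7 the order was complex V (0.15), II (0.05), I (0.02), IV (-0.03) and III (-0.15). Under the second quantile normalization and cyclic loess the medians kept this order on both days. All were then below 0 (-0.50 to -0.03) but that of complex V on day 1 after the second quantile normalization (0.06). Single genes within a complex were spread as widely: the standard deviation of their changes on day 7 was 0.32 in complex I, 0.57 in complex IV and 0.41 in complex V. The order rests on few genes, 4 in complex II and 2 in complex III, and did not hold on every array: on day 1 replicate 1 the median of complex II lay 0.30 above its day 0 level and that of complex V 0.14. On the day 1 arrays complex I ran from -0.08 to 0.11, complex II from -0.07 to 0.30, complex III from -0.27 to -0.004, complex IV from -0.45 to -0.07 and complex V from 0.08 to 0.14. On the day 7 arrays these were -0.01 to 0.17, -0.004 to 0.11, -0.21 to -0.03, -0.11 to 0.03 and 0.11 to 0.30. The day 0 arrays of complexes IV and V themselves ran from -0.12 to 0.12 and -0.12 to 0.09.

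**Figure D4:**
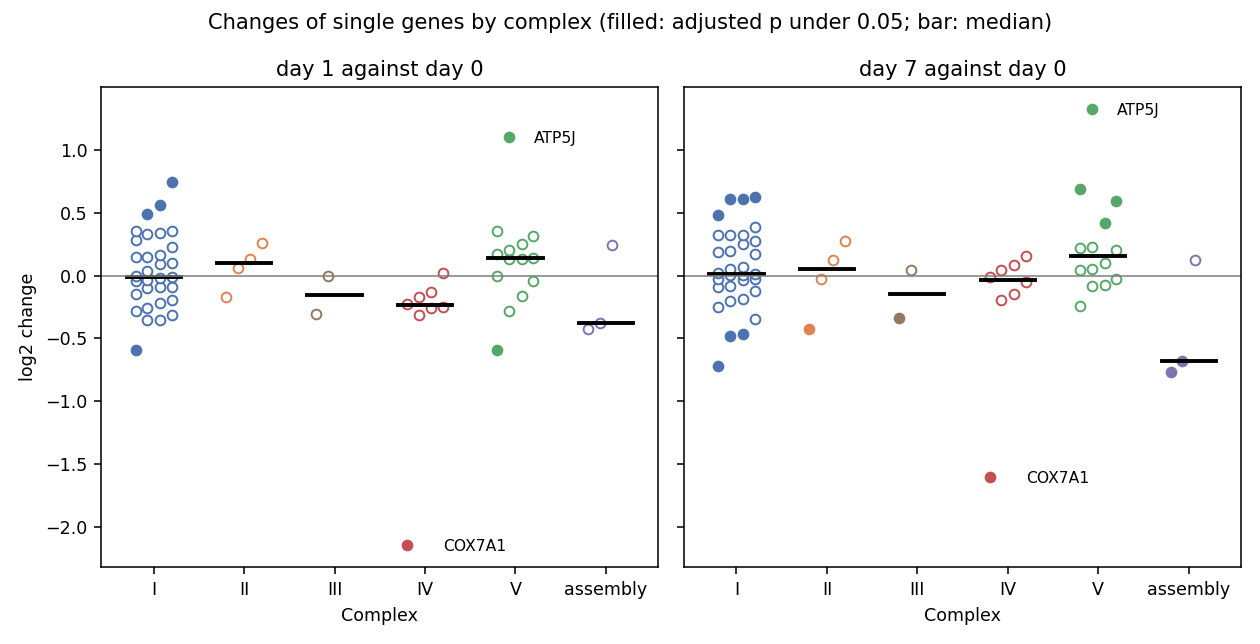
Log2 change (vertical axis) of each gene on day 1 and day 7 against day 0, by complex (horizontal axis); filled circles passed limma's test (adjusted p under 0.05) and bars are medians. The medians of the 5 complexes lie between -0.24 and 0.15 as deposited, with ATP5J and COX7A1 farthest from it; after cyclic loess all 5 medians lie below 0 on both days.

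The number of rises and falls depended on how the arrays were scaled. The deposited arrays do not share one distribution: their upper quartiles ran from 8.19 to 8.52. Probe sets as bright as most of these genes (5478 with a mean above 8.52) had a median change of 0.21 on day 1 and also on day 7 as deposited, with 33.2% higher and 14.6% lower on day 7, while the 63 genes had medians of -0.003 and 0.04. After a second quantile normalization the medians of the 63 genes were -0.13 and -0.17, with 3 higher and 12 lower on day 1 (4.76% and 19%, against 12.8% and 13.1% of all and 25.5% and 16.6% of the brighter probe sets). On day 7, 2 were higher and 14 lower (3.17% and 22.2%, against 15.1% and 17.2% of all and 26.6% and 21.9% of the brighter). After cyclic loess the medians were -0.25 and -0.23. Of the genes, 3 were then higher and 22 lower on day 1 (4.76% and 34.9%, against 11.7% and 13.1% of all and 21.5% and 19.2% of the brighter), and 1 higher and 16 lower on day 7 (1.59% and 25.4%, against 15.7% and 15.8%, and 25.4% and 23.2%); the brighter probe sets then had medians of 0.01 and -0.001. All 8 falls of day 7 and all 3 of day 1 were among the falls under both rescalings, while of the 8 rises of day 7, 2 (ATP5J and ATP5L) and 1 (ATP5J) were. The 95% intervals lay within 1 for 58 or 59 of the 63 genes on day 7 under the rescalings and for 58 on day 1. The comparison with bright probe sets was added after the data were seen.

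**Figure D5:**
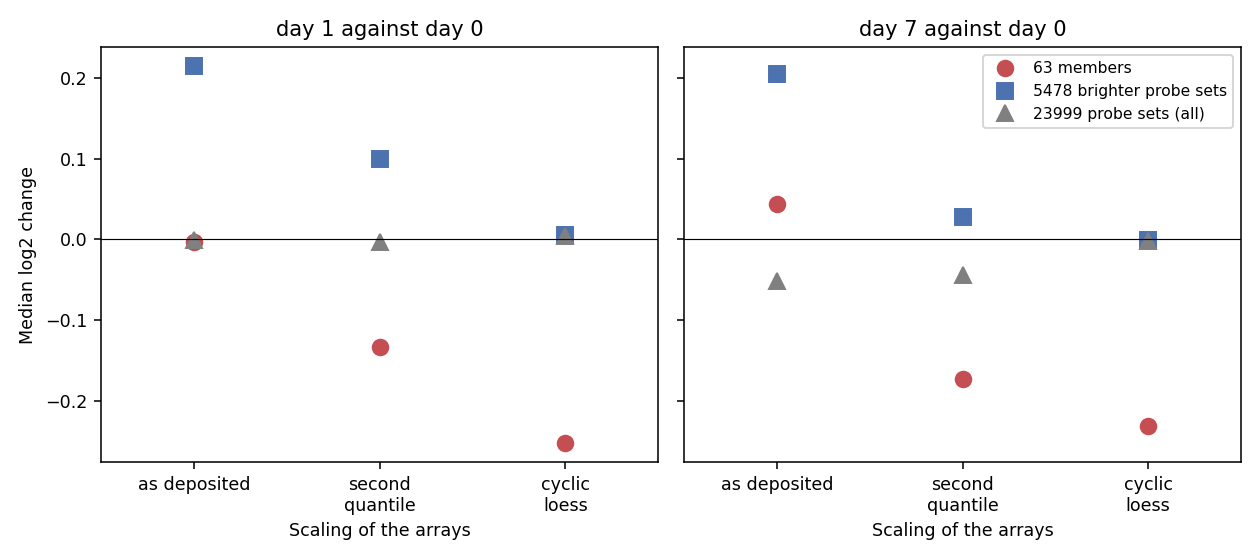
Median log2 change (vertical axis) of the 63 genes (labelled members), of 5478 bright probe sets and of all 23999 probe sets, as deposited and under 2 rescalings of the arrays (horizontal axis), for day 1 and day 7 against day 0. The median of the 63 genes is -0.003 and 0.04 as deposited and falls below 0 under both rescalings, and lies below that of the bright probe sets in each.

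In the comparisons of day 2 with day 1, day 4 with day 2 and day 7 with day 4, 0 of 63 genes passed limma's test, against 6.09%, 4.18% and 0.0625% of all probe sets, and 9, 6 and 0 genes had an unadjusted p under 0.05. With replicate number as a block 2 genes passed between days 1 and 2 (NDUFA4 and NDUFC1) and 1 between days 2 and 4 (ATP5J). Without replicate 1, 3 were higher and 3 lower on day 2 than on day 1. With arrays weighted by their quality 6 genes were higher and 10 lower on day 2 than on day 1, and 14 higher and 4 lower on day 4 than on day 2, but the weights ran from 0.199 to 13.1 with the highest on a single array, day 4 replicate 3. The shares of all probe sets with the block, without replicate 1 and with array weights were not computed. Between days 4 and 7 the median change was 0.09, against -0.001 over all and -0.03 over the brighter probe sets. It was 0.03 without day 4 replicate 2, the array with the largest actin difference, 0.04 without day 7 replicate 1, 0.05 without replicate 1 on every day, and 0.008 with array weights.

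Of the 63 genes, 14 had more than 1 probe set, 17 further probe sets in all, and 4 of these genes had a further probe set that passed the test where the one used did not. A dimmer probe set of NDUFA1 rose by 2.38 ± 0.27 on day 7 (7.58 to 9.95), while the brighter one differed by 0.25 ± 0.14. Dimmer probe sets of NDUFS3 and SDHB fell by 2.13 ± 0.25 and 1.11 ± 0.19 on day 7, where those used differed by 0.32 and 0.13. One of COX7C, with a mean of 5.33, rose by 1.02 ± 0.15 on day 1. The second probe set of SDHA differed by -0.09 ± 0.50 and did not pass. Which transcript forms these probe sets read is not known here, so the values of NDUFA1, NDUFS3, SDHA, SDHB and COX7C are uncertain.

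Of 10 electron carriers and feeders, 1 rose and 2 fell on day 1, and 4 rose and 2 fell on day 7. Of all probe sets, 13.6% rose and 11.4% fell on day 1, and 16.4% and 14.9% on day 7. The counts of this list and of the lists below stand against these shares. The lists are short, and none was tested as a set. SQOR, which passes electrons from sulfide to ubiquinone, fell by 1.51 ± 0.26 on day 1 and was 0.83 ± 0.26 above day 0 on day 7, a rise lost without replicate 1, and without day 0 replicate 1 or 3 or day 7 replicate 1 or 2 alone (adjusted p up to 0.114). GPD2, the mitochondrial glycerol phosphate dehydrogenase, rose by 1.27 ± 0.36 on day 7, and CYCS, cytochrome c, by 0.96 ± 0.30. The rise of GPD2 was lost without day 0 or day 7 replicate 1 (adjusted p up to 0.072) and that of CYCS without day 0 replicate 3 or day 7 replicate 1 or 2 (adjusted p up to 0.121) and after cyclic loess.

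Among 20 genes of the tricarboxylic acid cycle and pyruvate dehydrogenase, 2 rose and 2 fell on day 1, and 4 rose and 2 fell on day 7. PDK4 and PDK3, kinases that switch off pyruvate dehydrogenase, went in opposite directions by day 7. PDK4 fell by 3.74 ± 0.76 (adjusted p = 0.00172), and PDK3 rose by 2.06 ± 0.18 (adjusted p = 8.94e-07), both with each array left out. Over 18 settings the PDK4 change ran from -4.54 to -2.30, with limma's adjusted p at most 0.0456. A dimmer PDK3 probe set differed by -0.04 and did not pass. SUCLA2, a subunit of succinyl-CoA ligase, rose by 0.82 ± 0.18. Of 14 assembly factors outside the name rule, 3 rose and 1 fell on day 1, and 1 rose and 1 fell on day 7. ACAD9, which takes part in complex I assembly, rose by 0.87 ± 0.12 and 0.45 ± 0.12, and ATPAF1, a chaperone of the F1 part of complex V, fell by 0.80 ± 0.12 and 0.72 ± 0.12. TMEM70, another complex V factor, differed by -0.72 ± 0.27 on day 1 without passing, and ATPIF1, the inhibitor of ATP synthase, by 0.46 ± 0.19 on day 7 (adjusted p = 0.0819).

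Of 15 carriers, pores and uncoupling proteins, 3 rose and 2 fell on day 1, and 5 rose and 1 fell on day 7. SLC25A4 and SLC25A5 are adenine nucleotide carriers, which exchange ATP for ADP; the first is known from heart and muscle and the second from dividing cells. SLC25A4 stood at 10.94, 10.74 and 9.54 on day 0, 8.93, 8.83 and 8.68 on day 1, and 10.06, 9.98 and 9.99 on day 7. Day 0 replicate 3 lay apart from the other two and below the day 7 arrays. SLC25A4 fell by 1.59 ± 0.30 on day 1 and differed by -0.40 ± 0.30 on day 7 (adjusted p = 0.350). SLC25A5 rose by 0.67 ± 0.12 and 1.00 ± 0.12 in every setting without a minimum change. SLC25A6, a further carrier of this kind, stood at 13.20, 13.24 and 13.12 on day 0. It was 13.54, 13.10 and 13.03 on day 1, and 12.95, 12.82 and 13.09 on day 7. Its day 1 arrays overlapped those of day 0, and its day 7 arrays lay below them. The change of SLC25A4 minus that of SLC25A5 was -2.26 on day 1 and -1.40 on day 7 (exact permutation p = 0.10 each, two-sided, the smallest possible). Both genes were named for their large changes in these same data, so this test cannot add weight to the difference. UCP2, an uncoupling protein, rose by 1.38 ± 0.29 on day 1.

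Of 8 regulators of mitochondrial content 3 rose on both days and 0 fell. Of all probe sets, 13.6% rose and 11.4% fell on day 1, and 16.4% and 14.9% on day 7. MYC, a growth regulator, rose by 3.53 ± 0.18 and 3.11 ± 0.18, and PPRC1, a relative of PGC-1alpha that acts in growing cells, by 2.16 ± 0.19 and 1.90 ± 0.19. SSBP1, which binds single-stranded mitochondrial DNA, rose by 0.69 ± 0.23 and 0.71 ± 0.23, calls lost without day 0 replicate 1 or 2, among other arrays, and after cyclic loess. Dimmer probe sets of PPRC1 and SSBP1 did not pass (0.44 and -0.08 on day 1, -0.06 and -0.40 on day 7). TFAM, which packs and transcribes mitochondrial DNA, differed by 0.29 ± 0.11 on day 1 and 0.05 ± 0.11 on day 7, and PPARGC1A by 0.42 ± 0.49 and 0.24 ± 0.49, none past the test. Of 8 oxidant defence genes 1 rose and 4 fell on day 1, and 3 rose and 2 fell on day 7. GPX4, which reduces lipid peroxides, rose by 0.65 ± 0.13 and 1.61 ± 0.13, while a dimmer probe set differed by -0.33 and -0.36 and did not pass. PRDX5, a peroxiredoxin, fell by 1.22 ± 0.22 on day 1, and SOD2, the mitochondrial superoxide dismutase, rose by 1.41 ± 0.30 on day 7. None of 26 symbols searched for the subunits encoded in mitochondrial DNA had a named probe set, so the proteins of that genome are not analysed here.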

How the data were processed

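Levels were deposited by the authors as log2 values of the RMA method, per the submitters' processing notes; these notes name no version. Per the labels' protocols, 5 µg of total RNA, taken with Trizol and RNeasy columns, was labelled with biotin for each array. The table holds 24123 probe sets, of which 124 controls were left out and 23999 tested; 10069 carry 1 gene symbol in the platform annotation (6765 genes), 198 several and 13732 none, and a probe set with several names was not used. For a gene with several probe sets the one with the highest mean over the 15 arrays was used. All 63 members matched the RefSeq gene table.

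The deposited values were fitted in limma 3.58.1 (R 4.3.3) with day as a factor over all 15 arrays, with moderated tests of 5 comparisons and an F test over the 4 changes from day 0, and Benjamini-Hochberg adjustment over all probe sets. Within a day, arrays correlated at 0.963 to 0.996 over probe sets and none were identical; the number of arrays limits the precision. Replicate 1 of every day lay apart on the third principal component (13.1% of variance; 29.4 to 48.1 against -41.4 to -5.78).

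Deviations from the day means of same-numbered arrays correlated at 0.0609 to 0.333 between days 0 and 1 and at 0.214 to 0.727 in the other 4 comparisons, so by a limit of 0.1 the numbers, taken from the labels, pair the arrays in those 4; a departure of replicate 1 alone also gives such values. A fit with replicate number as a block is given beside the counts and the calls among the 63 genes that it changes. Other alternatives were 3 rescalings of the arrays, array weights, a filter on dim probe sets, a minimum change of 1, other choices of probe set and leaving out each array.

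Genes were named by rule: every gene of complexes with up to 5 measured members, the 2 largest rises and falls of the others, the isoform sets, and up to 3 per further list. Genes outside this rule were also given: those of the complexes listed above, and TFAM, PPARGC1A and SLC25A6 of the further lists. The members and lists were chosen with earlier results of these data known. Simulated data had the mean and within-day spread of each probe set, with no difference between days. Changes of 0.5, 1 and 2 were then added on day 7 to 67, 67 and 66 of 23999 probe sets. Of these, 2.99%, 67.2% and 89.4% were recovered on day 7 against day 0. In the data 31.3% of probe sets passed there, which makes the adjusted threshold less strict. The recovered shares therefore do not measure the sensitivity of the tests reported here. No promoter or protein sequences were used here.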

Additional observations from a re-analysis of the deposited data

How the results depend on the processing

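The counts of rises and falls depended on the scaling of the arrays. After a second quantile normalization, 12 genes were lower on day 1 (19%, against 13.1% of all probe sets; median -0.13), 2 lower on day 2 against day 1 (3.17% against 3.26%), and 14 lower and 2 higher on day 7 (22.2% and 3.17%, against 17.2% and 15.1%; median -0.17). After cyclic loess these were 22 (34.9% against 13.1%; median -0.25), 2 (3.17% against 2.91%), and 16 and 1 (25.4% and 1.59%, against 15.8% and 15.7%; median -0.23). With array weights, day 1 had 10 genes lower and 10 higher, day 2 against day 1 had 10 lower and 6 higher, and day 4 against day 2 had 4 lower and 14 higher (median 0.049), and 35 passed the F test. With replicate number as a block, 7 were higher on day 1, 1 lower and 1 higher on day 2 against day 1, and 1 higher on day 4 against day 2; beyond the genes named beside their results it changed no other call among the 63 genes. With a minimum change of 1, 1 was lower and 1 higher in each of the comparisons with day 0, and 3 passed the F test, against 23.6% of all probe sets. With the mean or the dimmest of a gene's probe sets, 1 was higher on day 2 against day 1. Leaving out arrays gave 2 to 10 lower and 2 to 8 higher on day 1, 0 to 3 lower and 0 to 3 higher on day 2 against day 1, 5 to 8 lower and 7 to 10 higher on day 7, and 13 to 24 by the F test; without replicate 1 these were 10 and 8, 3 and 3, 8 and 10, and 24. The medians then ran from -0.08 to 0.05 on day 1, -0.066 to 0.085 on day 2 against day 1, -0.10 to 0.01 on day 4 against day 2, 0.03 to 0.11 on day 7 against day 4 and -0.02 to 0.06 on day 7. With the dimmest probe set the sign of a change past the test in either setting turned for SDHB (-1.195 on day 1, -1.105 on day 7), NDUFS3 (-1.438, -2.128), COX7C (1.017 on day 1), ATP5J (-0.09 on day 1, -0.003 on day 7), NDUFAF2 (0.015 on day 7), SSBP1 (-0.083, -0.399), GPX4 (-0.33, -0.36), PDK3 (-0.038 on day 7) and PPRC1 (-0.057 on day 7). With the mean of a gene's probe sets it turned for SDHB (-0.53, -0.489), NDUFS3 (-0.521 on day 7) and COX7C (0.441 on day 1). Of 23 calls on days 1 and 7, 15 were kept with each array left out, and 6 under every setting other than the minimum change. Cyclic loess lost 8 of the 23, and a second quantile normalization 7. The shares of all probe sets were not computed with array weights, with the block, with arrays left out or with other choices of probe set. Nor were they for the single comparisons with a minimum change of 1. The causes were not tested.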
